A study of Mus musculus with 8 samples.

Results

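The 10 marker genes of liver macrophages, *Adgre1*, *Clec4f*, *Timd4*, *Vsig4*, *Cd5l*, *Csf1r*, *Cd68*, *Trem2*, *Gpnmb* and *Itgax*, were followed in liver RNA of FxrKO and Bcl6LKOFxrKO males. These 10 of the 24940 genes in the count table were taken by their symbols, in a choice made with earlier results of these data known, and all 10 passed the expression filter that left 12340 genes to test. Of these, 5 are markers of resident Kupffer cells (*Adgre1*, *Clec4f*, *Timd4*, *Vsig4*, *Cd5l*), *Csf1r* and *Cd68* are shared by most macrophages, and *Trem2*, *Gpnmb* and *Itgax* mark lipid-associated macrophages. The 4 FxrKO mice were homozygous for the *Fxr* (*Nr1h4*) null allele in every cell and carried 2 floxed *Bcl6* alleles without Cre. The 4 Bcl6LKOFxrKO mice had the same alleles and an Albumin-Cre transgene, which deletes floxed *Bcl6* in hepatocytes and not in macrophages. All were C57BL/6, each library was made from whole liver, and the age of the mice is not given in the sources used here. The comparison asks what the loss of hepatocyte *Bcl6* adds in mice that already lack *Fxr*, and no liver with intact *Fxr* was analysed here.

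Kupffer cells are the resident macrophages of the liver sinusoids, where they take up particles, complement-coated microbes, lipids and dying cells from the blood. Monocytes that enter an injured liver can become macrophages, and in fatty, cholestatic or fibrotic livers some macrophages carry a lipid-associated programme of lysosomal, lipid-handling and phagocytic genes that includes *Trem2* and *Gpnmb*. CSF1R, the receptor for the growth factors CSF1 and IL34, is needed for the survival of macrophages of either origin. In RNA of whole liver, fewer cells of a type and less RNA per cell cannot be told apart, and the origin of a macrophage cannot be read from these counts.

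Reads per gene were given as counts on exons, with totals from 7586241 to 10056721 in FxrKO and from 9156775 to 11839503 in Bcl6LKOFxrKO livers. Levels are given as CPM, the counts of a gene relative to its library's TMM-scaled total, and 3 counts correspond to 0.272 to 0.375 CPM, a floor that covers counting error only. *Bcl6* was at 21.2 to 65.2 CPM in FxrKO and 4.61 to 11.9 CPM in Bcl6LKOFxrKO livers, without overlap, as the labels state. Reads on *Nr1h4* were still counted, at 56.7 to 62.6 CPM in FxrKO and 39.4 to 48.1 CPM in Bcl6LKOFxrKO livers (log2 fold change -0.46, adjusted p = 0.00497 from edgeR), so these counts do not check the loss of *Fxr*. The 50 most counted genes held 29.8% to 31.2% of the counts in FxrKO and 40.7% to 44.1% in Bcl6LKOFxrKO livers, and scaling by total counts alone moved the median log2 fold change over genes by -0.16. The share of called genes that were higher was then 32.3% against 54.5% with TMM. Livers 1 to 4 are FxrKO and livers 5 to 8 Bcl6LKOFxrKO, and a gene is called when its adjusted p is under 0.05 (edgeR's quasi-likelihood test, Benjamini-Hochberg adjustment over all tested genes).

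Of the 10 genes, 4 rose in Bcl6LKOFxrKO livers (*Gpnmb*, *Trem2*, *Itgax* and *Cd68*), none fell and 6 were not called. Among all tested genes, 16.2% were called higher and 13.5% were called lower. None of the 5 resident markers was called, against 1 of the 2 shared and all 3 lipid-associated markers. *Trem2* and *Gpnmb* had few counts in FxrKO livers and passed the expression filter through the Bcl6LKOFxrKO livers. The median log2 fold change was 0.20 for the resident and 2.85 for the lipid-associated markers, beside 0.01 for all tested genes. In each of the 4 called genes all 4 Bcl6LKOFxrKO livers lay above all 4 FxrKO livers, which was so for 16.1% of all tested genes, and in the other 6 the genotypes overlapped.

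**Figure D1:**
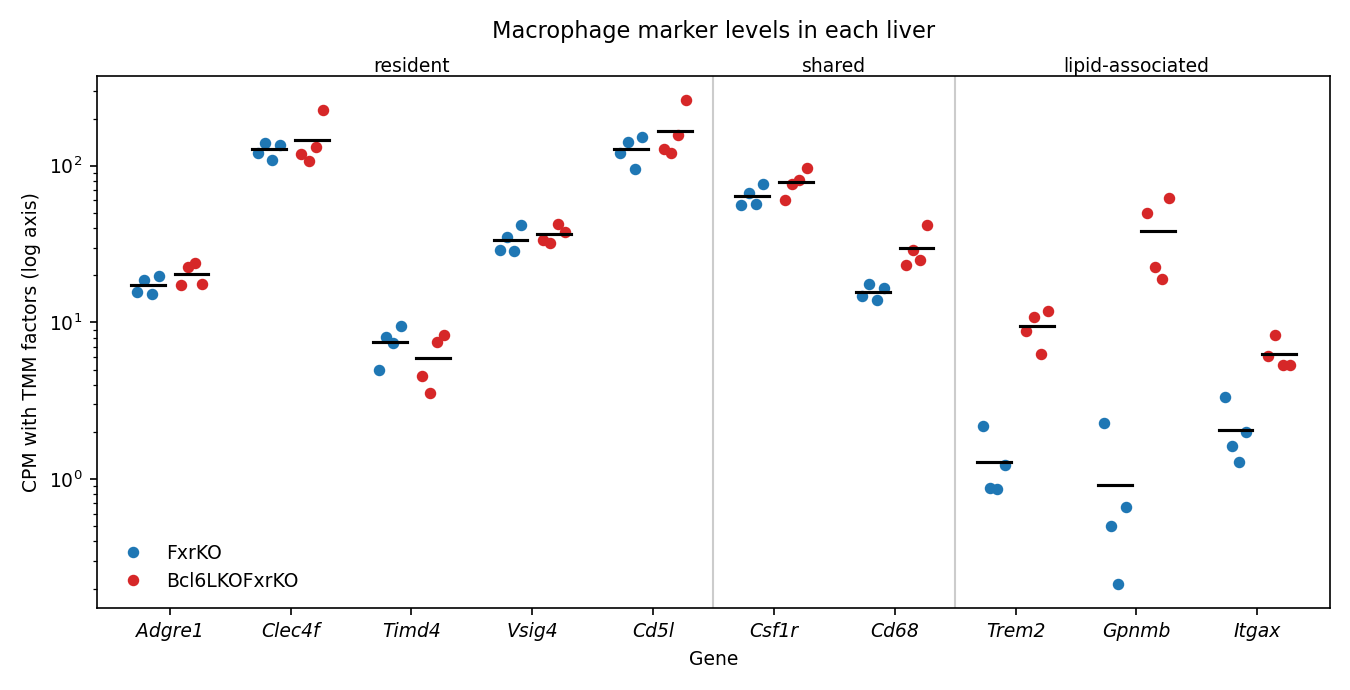
Levels of the 10 macrophage markers in each liver (points, CPM with TMM factors on a log axis) with the mean of each genotype (black lines, n = 4), FxrKO in blue and Bcl6LKOFxrKO in red, in library order from left to right. The points of the 5 resident markers and of *Csf1r* overlap between genotypes, and those of *Cd68*, *Trem2*, *Gpnmb* and *Itgax* do not.

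*Clec4f* (NM_016751, mm10 chromosome 6, 83644542 to 83656116, minus strand, 7 exons) encodes a galactose-binding lectin that in the mouse is restricted to Kupffer cells. It was at 121, 140, 108 and 136 CPM in FxrKO and at 119, 107, 132 and 226 CPM in Bcl6LKOFxrKO livers. Liver 8 stood above the other 7 livers, and the remaining 3 Bcl6LKOFxrKO livers lay in or just below the FxrKO range. The log2 fold change was 0.20 (standard error 0.21, 95% interval -0.25 to 0.66, adjusted p = 0.494 from edgeR), and it became -0.09 without liver 8 and -0.03 with limma voom.

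*Cd5l* (NM_009690, chromosome 3, 87357881 to 87371074, plus strand, 6 exons), a secreted scavenger protein of tissue macrophages also called AIM, was at 121, 141, 94.7 and 152 CPM in FxrKO and 127, 120, 157 and 263 CPM in Bcl6LKOFxrKO livers. As for *Clec4f*, liver 8 was the highest. The log2 fold change of *Cd5l* was 0.39 (standard error 0.25, 95% interval -0.15 to 0.94, adjusted p = 0.261 from edgeR), and 0.08 without liver 8. *Vsig4* (NM_177789, chromosome X, 96247203 to 96293438, minus strand, 7 exons) encodes CRIg, the complement receptor with which Kupffer cells catch opsonized bacteria. It was at 28.9, 34.9, 28.4 and 42 CPM in FxrKO and 33.4, 32.3, 42.7 and 37.8 CPM in Bcl6LKOFxrKO livers, with nearly the same range in the 2 genotypes. Its log2 fold change was 0.12 (standard error 0.15, 95% interval -0.19 to 0.44, adjusted p = 0.562 from edgeR), or -0.03 with total counts alone.

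*Adgre1* (NM_010130, chromosome 17, 57358686 to 57483529, plus strand, 22 exons) encodes F4/80, a surface protein of mouse macrophages in general that is strong on Kupffer cells. It was at 15.7, 18.7, 15.2 and 19.7 CPM in FxrKO and 17.3, 22.6, 24 and 17.6 CPM in Bcl6LKOFxrKO livers. Livers 6 and 7 stood above every FxrKO liver, while livers 5 and 8 did not. The log2 fold change was 0.23 (standard error 0.15, 95% interval -0.10 to 0.56, adjusted p = 0.272 from edgeR). *Timd4* (NM_178759, chromosome 11, 46810799 to 46844333, plus strand, 9 exons) encodes TIM4, a receptor for phosphatidylserine on dying cells that is kept by long-lived, embryonically derived Kupffer cells. It was at 5, 8.12, 7.42 and 9.46 CPM in FxrKO and 4.53, 3.52, 7.5 and 8.26 CPM in Bcl6LKOFxrKO livers. *Timd4* had the only negative log2 fold change of the 10 genes, -0.32 (standard error 0.27, 95% interval -0.91 to 0.27, adjusted p = 0.409 from edgeR), with livers 5 and 6 the lowest of the 8. The 95% intervals of the 5 resident markers differed between genes on the log2 scale. Those of *Adgre1* (-0.10 to 0.56) and *Vsig4* (-0.19 to 0.44) were narrower than those of *Timd4* (-0.91 to 0.27) and *Cd5l* (-0.15 to 0.94). Each interval applies to its own gene, and with 4 livers in each genotype an uncalled marker is not shown to be unchanged.

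*Csf1r* (NM_001037859, chromosome 18, 61105572 to 61131139, plus strand, 22 exons) was at 56.2, 66.6, 57.3 and 76.9 CPM in FxrKO and 60.7, 76, 81.2 and 96.7 CPM in Bcl6LKOFxrKO livers. Livers 7 and 8 exceeded all FxrKO livers and livers 5 and 6 did not. Its log2 fold change was 0.29 (standard error 0.15, 95% interval -0.03 to 0.62, adjusted p = 0.16 from edgeR). *Cd68* (NM_001291058, chromosome 11, 69664213 to 69666170, minus strand, 6 exons), a glycoprotein of macrophage lysosomes, was at 14.8, 17.5, 13.8 and 16.7 CPM in FxrKO and 23.1, 29.1, 24.9 and 41.9 CPM in Bcl6LKOFxrKO livers. The lowest Bcl6LKOFxrKO liver was above the highest FxrKO liver. *Cd68* rose 1.9-fold, from a mean of 15.7 ± 1.71 to 29.7 ± 8.46 CPM (SD, n = 4; log2 fold change 0.93, standard error 0.18, 95% interval 0.53 to 1.32, adjusted p = 0.00211 from edgeR), and 0.71 without liver 8. An exact permutation test over livers (two-sided) came to p = 0.0286 each for *Cd68*, *Trem2*, *Gpnmb* and *Itgax*, the smallest that the 70 orderings of 8 livers allow.

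*Gpnmb* (NM_053110, chromosome 6, 49036518 to 49058182, plus strand, 11 exons) encodes a transmembrane glycoprotein of lysosomes in lipid-laden phagocytes, and it had the largest fold change of the 10 genes. It was at 2.29, 0.5, 0.215 and 0.662 CPM in FxrKO and 49.9, 22.6, 19 and 62 CPM in Bcl6LKOFxrKO livers. The FxrKO values rest on 22, 4, 2 and 7 counts, so the baseline is imprecise and in liver 3 is below the limit of 3 counts, while the Bcl6LKOFxrKO values rest on 186 to 683 counts. *Gpnmb* was 40.8-fold higher (95% interval 14.1 to 118, log2 fold change 5.35, standard error 0.66, adjusted p = 0.000662 from edgeR). Most of the FxrKO counts came from liver 1, and without it the log2 fold change was 6.33.

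*Trem2* (NM_001272078, chromosome 17, 48346401 to 48352276, plus strand, 5 exons) encodes a lipid-sensing receptor that signals through the adaptor TYROBP. It was at 2.19, 0.875, 0.86 and 1.23 CPM in FxrKO livers, from 7 to 21 counts, and at 8.76, 10.9, 6.33 and 11.9 CPM in Bcl6LKOFxrKO livers, from 65 to 131 counts. Liver 1 was again the highest FxrKO liver, at less than the lowest Bcl6LKOFxrKO liver. *Trem2* rose 7.22-fold (95% interval 4.56 to 11.4, log2 fold change 2.85, standard error 0.31, adjusted p = 2.04e-05 from edgeR). *Itgax* (NM_021334, chromosome 7, 128129568 to 128150657, plus strand, 30 exons) encodes CD11c, an integrin of dendritic cells that lipid-associated macrophages also carry. It was at 3.33, 1.62, 1.29 and 1.99 CPM in FxrKO and 6.14, 8.37, 5.36 and 5.36 CPM in Bcl6LKOFxrKO livers. *Itgax* rose 3.02-fold (95% interval 1.97 to 4.63, log2 fold change 1.59, standard error 0.29, adjusted p = 0.00112 from edgeR), and in liver 1 its level was nearest to those of Bcl6LKOFxrKO livers.

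**Figure D2:**
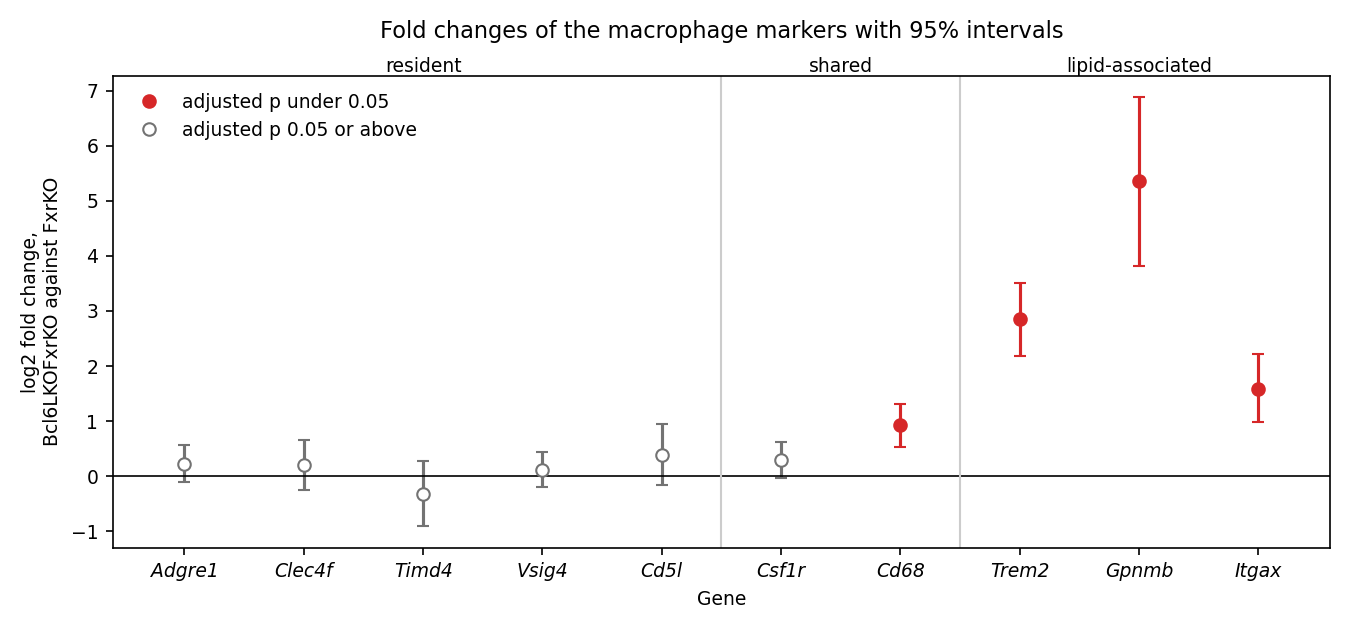
Log2 fold change of each macrophage marker in Bcl6LKOFxrKO against FxrKO livers (points) with its 95% interval from edgeR (bars), filled red where the adjusted p is under 0.05. The intervals of the 5 resident markers and of *Csf1r* include 0, and those of *Cd68* (0.53 to 1.32), *Trem2* (2.19 to 3.51), *Gpnmb* (3.82 to 6.88) and *Itgax* (0.98 to 2.21) do not.

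The strand of the counted reads is not named in the stated counting options, but no exon of another GENCODE M21 gene overlaps an exon of any of the 10 genes. Their levels were compared with each other only per kilobase of transcript. On that scale *Cd5l*, *Clec4f* and *Vsig4* were the 3 highest in both genotypes, at 62.7 ± 12.4, 53 ± 6.16 and 23.6 ± 4.47 CPM per kb in FxrKO and 82.2 ± 32.6, 61 ± 22.7 and 25.7 ± 3.31 CPM per kb in Bcl6LKOFxrKO livers (SD, n = 4). In Bcl6LKOFxrKO livers *Cd5l* and *Clec4f* differed by less than their SDs. *Gpnmb* was the lowest of the 10 in FxrKO livers at 0.242 ± 0.247 CPM per kb and the sixth in Bcl6LKOFxrKO livers at 10.1 ± 5.53 CPM per kb, where it did not differ from *Trem2* at 8.32 ± 2.17 beyond the spread. *Itgax* stayed low on the per-kb scale, with 0.515 ± 0.224 in FxrKO and 1.58 ± 0.357 in Bcl6LKOFxrKO livers.

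The lipid-associated markers were also set against the shared markers within each liver, which removes the scaling between libraries. Per 100 counts of *Csf1r* there were 3.89, 1.31, 1.5 and 1.6 counts of *Trem2* in FxrKO and 14.4, 14.4, 7.79 and 12.3 in Bcl6LKOFxrKO livers. The same ratio of *Gpnmb* was 4.07, 0.75, 0.375 and 0.861 in FxrKO and 82.1, 29.7, 23.4 and 64.1 in Bcl6LKOFxrKO livers. Both genes and *Cd68*, at 21.6 to 26.3 against 30.7 to 43.3, thus stayed apart between genotypes relative to *Csf1r*. For *Itgax* the ratios overlapped, since liver 1 had 5.93 and liver 8 had 5.54 counts per 100 of *Csf1r*. The ratios of the 5 resident markers to *Csf1r* overlapped too, and their genotype means differed least for *Adgre1* (27 ± 1.23 and 26.5 ± 5.54, SD, n = 4) and most for *Timd4* (11.6 ± 1.83 and 7.47 ± 2.03). Relative to *Clec4f*, which of the 10 is the most restricted to Kupffer cells, *Trem2* was at 0.623 to 1.8 counts per 100 in FxrKO and 4.81 to 10.2 in Bcl6LKOFxrKO livers. Per 100 counts of *Cd68*, which itself rose, each of the 5 resident markers was lower in every Bcl6LKOFxrKO liver than in any FxrKO liver. For example, *Clec4f* was at 787 to 822 against 368 to 540 and *Timd4* at 33.8 to 56.8 against 12.1 to 30.1. The shared marker *Csf1r* was lower in the same way, at 380 to 462 against 231 to 326. The drop relative to *Cd68* was thus not particular to the resident markers. On this scale *Trem2* was at 5 to 14.8 in FxrKO and 25.4 to 38 in Bcl6LKOFxrKO livers. *Gpnmb* was at 1.56 to 15.5 and 76.2 to 216, while *Itgax* overlapped again, at 9.29 to 22.5 and 12.8 to 28.8.

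As a summary of the contrast between the marker classes, the mean log2(CPM + 1) of each class was taken in every liver. The resident mean was 5.26 ± 0.22 in FxrKO and 5.36 ± 0.30 in Bcl6LKOFxrKO livers, and the lipid-associated mean was 1.19 ± 0.46 and 3.78 ± 0.35 (SD, n = 4). The lipid-associated minus the resident mean was -3.25, -4.43, -4.27 and -4.35 in FxrKO and -1.20, -1.31, -2.22 and -1.60 in Bcl6LKOFxrKO livers. The difference between genotypes was 2.49 on this scale, and since the pseudocount of 1 CPM compresses the low FxrKO values it was 3.22 with a pseudocount of 0.1. No test is given for this score, because the genes in it were chosen with results of these data known. Liver 8 had the highest resident mean, 5.72, and liver 3 was the lowest FxrKO liver in 8 of the 10 genes. Liver 8 was the highest Bcl6LKOFxrKO liver in 7 of the 10. Liver 1 was the highest FxrKO liver in all 3 lipid-associated markers and in none of the other 7.

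**Figure D3:**
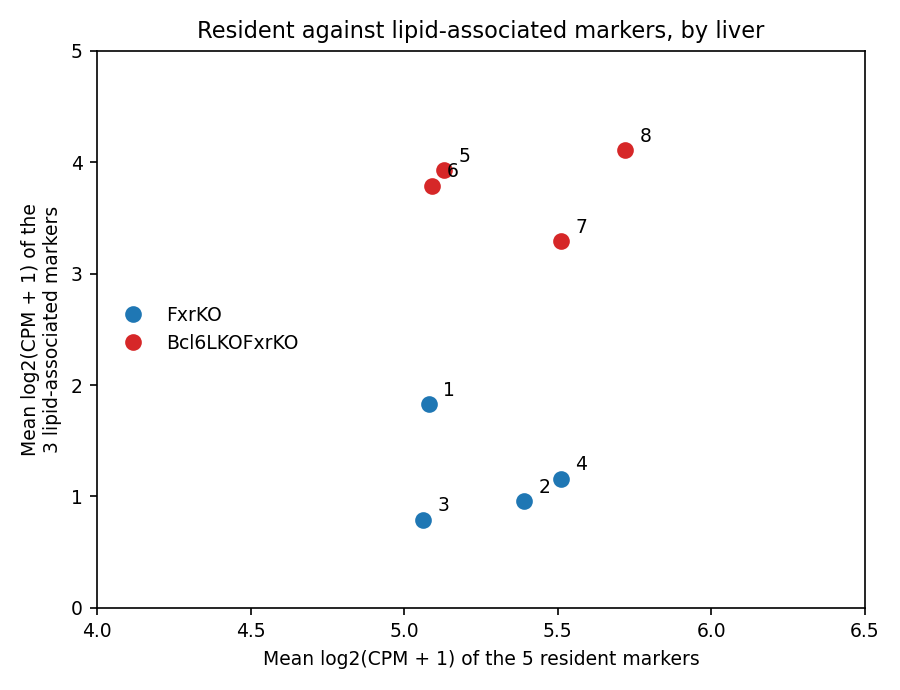
Each liver (point, numbered by library) placed by its mean log2(CPM + 1) over the 5 resident markers (horizontal axis) and over the 3 lipid-associated markers (vertical axis), FxrKO in blue and Bcl6LKOFxrKO in red. The genotypes overlap on the horizontal axis (5.06 to 5.51 for FxrKO, 5.09 to 5.72 for Bcl6LKOFxrKO) and are apart on the vertical axis, where FxrKO livers lie between 0.79 and 1.83 and Bcl6LKOFxrKO livers between 3.29 and 4.11.

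Because all 3 lipid-associated markers were called higher, their promoters are shown beside that of *Clec4f*, which was not called. The sequences are those of RefSeq on GRCm38.p6 (mm10), from 250 bases before to 50 after the transcript start, read 5′ to 3′ on the strand of the gene. They cover chr17:48346151-48346450 (*Trem2*, plus strand), chr6:49036268-49036567 (*Gpnmb*, plus strand), chr7:128129300-128129599 (*Itgax*, plus strand, from the start of another transcript than the counted one) and chr6:83656067-83656366 (*Clec4f*, minus strand). Capitals mark GGAAGT on either strand, a core bound by PU.1 and other ETS factors.
Trem2: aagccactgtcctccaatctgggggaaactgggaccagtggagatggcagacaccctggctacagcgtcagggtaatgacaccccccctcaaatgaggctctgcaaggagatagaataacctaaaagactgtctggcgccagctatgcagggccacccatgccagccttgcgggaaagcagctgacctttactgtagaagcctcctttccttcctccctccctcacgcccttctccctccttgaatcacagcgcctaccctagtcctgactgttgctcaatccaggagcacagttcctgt
Gpnmb: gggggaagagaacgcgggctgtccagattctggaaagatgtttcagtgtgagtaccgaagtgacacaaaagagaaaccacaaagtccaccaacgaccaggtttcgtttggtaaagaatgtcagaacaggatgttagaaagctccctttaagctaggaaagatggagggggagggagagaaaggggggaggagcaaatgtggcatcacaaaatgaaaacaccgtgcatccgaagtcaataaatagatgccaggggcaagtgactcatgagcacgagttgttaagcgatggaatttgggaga
Itgax: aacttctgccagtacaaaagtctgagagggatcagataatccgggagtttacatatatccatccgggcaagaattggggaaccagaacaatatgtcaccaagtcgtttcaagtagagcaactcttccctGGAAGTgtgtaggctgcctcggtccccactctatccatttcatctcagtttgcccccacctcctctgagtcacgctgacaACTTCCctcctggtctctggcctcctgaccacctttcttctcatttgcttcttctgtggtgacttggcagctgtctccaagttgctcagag
Clec4f: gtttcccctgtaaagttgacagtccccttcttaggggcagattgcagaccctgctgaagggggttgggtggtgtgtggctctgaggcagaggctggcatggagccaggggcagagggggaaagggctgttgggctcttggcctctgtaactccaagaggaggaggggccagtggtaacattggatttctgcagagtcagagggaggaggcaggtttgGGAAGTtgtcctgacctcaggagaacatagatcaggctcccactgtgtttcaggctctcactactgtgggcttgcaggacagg
Searched on both strands, GGAAGT was present in 5 of the 8 promoters examined, those of *Clec4f*, *Timd4*, *Vsig4*, *Cd68* and *Itgax*, and in 23.8% of all 32851 promoters in the table. *Trem2* and *Gpnmb*, the 2 most changed of the 10 genes, had no GGAAGT in this window, and *Itgax* had 2, starting 121 bases before the start on the plus strand and 41 bases before it on the minus strand. None of the 8 held CACGTG, the E-box read by MITF, TFE3 and TFEB (7.15% of all promoters), or TTCNNNGAA, the core shared by STAT factors and BCL6 (8.3%). These are matches of letters and no measure of binding.

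The CSF1R and TREM2 pathway was followed with a list of 21 genes that includes *Csf1r* and *Trem2* themselves, of which 19 were tested. Of these 19, 10 rose, *Trem2* among them, and none fell, beside 16.2% called higher and 13.5% called lower among all tested genes. *Hcst* and *Card9* were counted too low to test. Which cells gave the counts of the pathway genes was not tested. Of the ligands, *Csf1*, the growth factor of macrophages, rose from 13.2 ± 2.38 to 21.8 ± 3.6 CPM (SD, n = 4; log2 fold change 0.72, adjusted p = 0.0057 from edgeR), while *Il34*, the other CSF1R ligand, was at 1.82 ± 0.565 and 2.99 ± 0.623 CPM (adjusted p = 0.0836 from edgeR). *Apoe*, a lipoprotein component that binds TREM2 and is made mostly by hepatocytes, rose by 0.62 on the log2 scale (adjusted p = 0.0315 from edgeR). Downstream of TREM2, *Tyrobp*, its adaptor, rose from 14.1 ± 2.31 to 22.5 ± 5.89 CPM (log2 fold change 0.67, adjusted p = 0.017 from edgeR), and the kinase gene *Syk*, the lipase gene *Plcg2*, the phosphatase gene *Inpp5d* and *Pik3cd* were called higher with log2 fold changes of 0.61, 1.15, 1.04 and 0.71. *Adam10*, a protease that sheds TREM2 from the cell surface, rose by 0.77 on the log2 scale (adjusted p = 0.00721 from edgeR), while *Adam17*, which can also cleave it, was not called (log2 fold change -0.08, adjusted p = 0.66). *Ms4a7*, a membrane gene of macrophages, went from 0.871 ± 0.674 to 3.37 ± 0.845 CPM (log2 fold change 1.94, adjusted p = 0.00425 from edgeR). It had 3 to 17 counts in FxrKO and 30 to 38 in Bcl6LKOFxrKO livers, so it passed the expression filter through the genotype where it is higher. The lysosomal regulators *Mitf*, *Tfeb* and *Tfe3* had log2 fold changes of -0.31, -0.25 and -0.05 and were not called.

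Further Kupffer cell genes were called in both directions, as were all tested genes, with 16.2% called higher and 13.5% called lower. Of 16 other Kupffer cell markers, 6 were called higher and 1 lower (median log2 fold change 0.40). Those called higher were the complement genes *C1qa*, *C1qb* and *C1qc* with log2 fold changes of 0.70, 0.58 and 0.46, *Il18bp*, a secreted inhibitor of IL-18, with 0.92 (adjusted p = 0.00082 from edgeR), *Clec1b* with 0.61 and *Kcna2* with 0.63. *Hpgd*, a prostaglandin-degrading enzyme that other liver cells also make, fell from 90.6 ± 16.8 to 44 ± 4.97 CPM (log2 fold change -1.04, adjusted p = 0.000151 from edgeR). The scavenger receptor genes *Marco* and *Cd163* had log2 fold changes of 0.83 and -0.98 and were not called (adjusted p = 0.0622 and 0.059 from edgeR). The count of 6 was not stable, with 1 called higher without liver 3, 3 without liver 4 or without liver 8, and 2 without livers 1 and 8 or with total counts alone. Of 10 transcription factors of Kupffer cells, 2 were called higher and 2 lower, shares near the 16.2% and 13.5% of all tested genes. *Id1* rose 6.54-fold (adjusted p = 5.58e-05 from edgeR) and *Irf8* 1.53-fold (adjusted p = 0.017), whereas *Rxra* fell from 605 ± 25.1 to 400 ± 63.5 CPM (adjusted p = 0.00365 from edgeR). *Nr1h3* (LXR alpha), *Spic* and *Spi1* (PU.1) were not called, with log2 fold changes of -0.01, 0.58 and 0.52, and hepatocytes express *Id1*, *Nr1h3* and *Rxra* as well.

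Of 19 other lipid-associated macrophage markers, 16 rose and 1 fell, and their median was 1.12 on the log2 scale. Among all tested genes, the shares called higher and lower were 16.2% and 13.5%. *Cd9*, a tetraspanin, rose from 15.9 ± 2.83 to 105 ± 10.8 CPM (SD, n = 4; 6.61-fold, adjusted p = 3.19e-08 from edgeR). *Apoc2*, the cofactor of lipoprotein lipase, rose 5.36-fold (adjusted p = 3.16e-07 from edgeR) and *Lgals1*, which encodes galectin-1, rose 3.91-fold (adjusted p = 7.92e-05). The lysosomal genes *Cd63*, *Atp6v0d2*, *Ctsd* and *Ctsb* had log2 fold changes of 2.95, 2.52, 0.83 and 0.70, and *Lpl*, *Cd36* and *Lgals3* 1.08, 0.99 and 1.45, all called higher. *Fabp5*, a fatty acid binding protein, fell from 71 ± 15.7 to 36.2 ± 13.1 CPM (log2 fold change -0.97, adjusted p = 0.00972 from edgeR), a call that was lost without liver 8, and *Ctsl* and *Plin2* were not called. Many of these genes, among them *Apoc2*, *Cd63*, *Ctsb*, *Ctsd*, *Cd36* and *Plin2*, are also expressed by hepatocytes, and *Spp1*, which rose 2.01-fold, by cholangiocytes, so their counts are not those of macrophages alone.

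Of 18 general macrophage markers, 12 rose and none fell, beside 16.2% called higher and 13.5% called lower among all tested genes. All 18 log2 fold changes were above 0 (median 0.71). The part of other leukocytes in these levels was not tested. *Coro1a*, an actin regulator of leukocytes, rose 2.92-fold (adjusted p = 0.000209 from edgeR), *Lyz2*, the macrophage lysozyme, rose from 67.2 ± 13.2 to 118 ± 15.4 CPM (adjusted p = 0.00144) and *Ctss*, a lysosomal protease, from 39.4 ± 6.22 to 64.8 ± 9.89 CPM (adjusted p = 0.00257). Without liver 3 the count of 12 became 7, and with total counts alone it became 9. *Mpeg1* and *Mertk* stayed uncalled, at log2 fold changes of 0.14 and 0.25. Monocyte markers were thinly counted, with summed levels of 12 to 24.2 CPM in FxrKO and 27.7 to 53.8 CPM in Bcl6LKOFxrKO livers over 12 genes. Only 7 passed the filter on low counts, which a gene can pass through the genotype where it is higher, so the 5 called higher among them do not stand for the list. *Cx3cr1*, the fractalkine receptor, went from 1.67 ± 0.746 to 7.83 ± 3.65 CPM (4.54-fold, adjusted p = 0.000697 from edgeR), *S100a4* from 0.769 ± 0.446 to 2.69 ± 0.503 CPM (adjusted p = 0.00457), and *Ccr2*, the receptor with which monocytes are recruited, from 1.1 ± 0.593 to 2.62 ± 0.993 CPM (adjusted p = 0.0387). *Ly6c2*, which marks classical monocytes, was at 0.423 ± 0.485 and 0.634 ± 0.223 CPM, near the limit of 3 counts, and it was not tested, nor were *Chil3*, *F13a1*, *Vcan* and *Ms4a4c*.

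**Figure D4:**
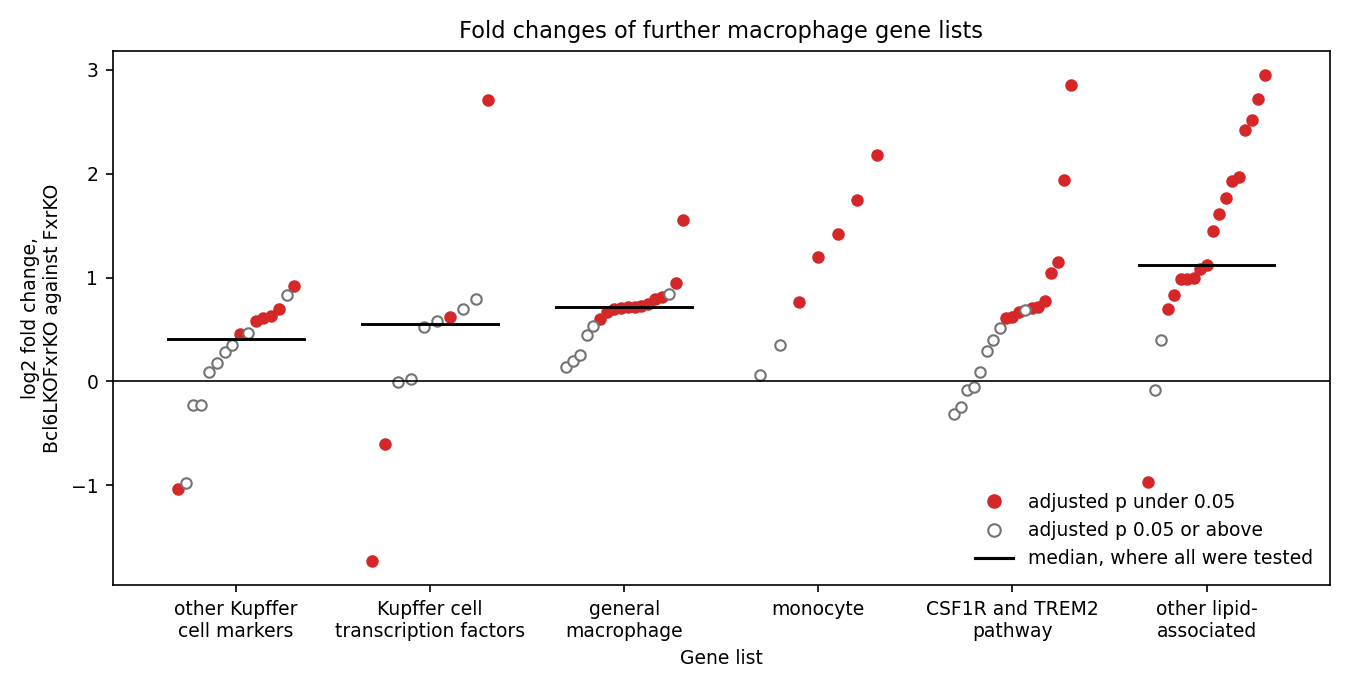
Log2 fold changes in Bcl6LKOFxrKO against FxrKO livers of the tested genes (points, in order of their value) of 6 further macrophage gene lists, filled red where the adjusted p from edgeR is under 0.05, with the median of each list that was tested in full (black lines). The medians are 0.40 for other Kupffer cell markers, 0.55 for the transcription factors, 0.71 for general macrophage markers and 1.12 for other lipid-associated markers, and the monocyte and pathway lists, the latter with *Csf1r* and *Trem2*, show only the 7 of 12 and 19 of 21 genes that passed the filter on low counts.

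Levels of markers of some other cell types also differed between genotypes. Counts of called genes stand beside the 16.2% called higher and 13.5% called lower among all tested genes. In lists with few tested genes, a gene could pass the filter through the genotype where it is higher, and their calls are given beside the summed levels of the whole list. Summed over the list, neutrophil markers were at 5.16 to 12.8 CPM in FxrKO and 14.2 to 25.5 CPM in Bcl6LKOFxrKO livers, with *S100a9* and *Csf3r* called higher among 3 tested. T and NK cell markers summed to 1.4 to 2.27 and 4.53 to 5.63 CPM with none of the 7 counted genes tested, and B cell markers to 4.73 to 8.49 and 9.22 to 14.9 CPM, with *Jchain* called higher of 2 tested. Dendritic cell markers, which matter for *Itgax*, summed to 4.51 to 9.37 CPM in FxrKO and 9.26 to 13.3 CPM in Bcl6LKOFxrKO livers, and neither of the 2 tested was called. Of 10 stellate cell and fibroblast markers, 8 were called higher (median log2 fold change 0.94), with summed levels of 203 to 264 and 444 to 472 CPM. The sinusoidal endothelial markers summed to 242 to 331 and 302 to 397 CPM, with *Stab2* alone called higher of 10. Cholangiocyte markers summed to 42.2 to 68.1 and 76.6 to 135 CPM, mostly from *Spp1*, and 2 of 4 tested were called higher. Of 10 hepatocyte markers, *Alb* rose 3.04-fold, *Ttr* and *Apob* fell, and 7 were not called (median log2 fold change -0.19), with summed levels of 64647 to 75553 and 151939 to 175226 CPM, most of it *Alb*. Among 6 tested cycling genes *Mki67* and *Top2a* were called higher, 3.65-fold and 2.45-fold, and the list of 7 summed to 28.9 to 34.7 and 37.9 to 52.3 CPM. No gene of these lists that the table holds was at 0 in all 8 livers, and the part of the other cell types in the levels of the 10 macrophage markers was not tested.

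Across the 8 livers, the genes whose log2(CPM + 1) followed the markers most closely were sought among 9087 well-counted genes (mean count 50 or more). For *Trem2* these were *Ctsb*, *Trf*, *Dap*, *F11r* and *Ifi27l2b* (Pearson r of 0.99 or above). After each genotype was centred on its own mean, their r ran from 0.84 for *Ifi27l2b* to 0.98 for *Ctsb*, which encodes the lysosomal protease cathepsin B. For *Gpnmb* the nearest genes were *Gars*, *Tmem37*, *Maged1*, *Slc35c2* and *Fam98a* (r of 0.99 or above, and 0.89 to 0.96 after centring). Among the genes nearest to *Clec4f* were *Anapc15*, *Las1l*, *Vamp5* and *Tarbp2* (r from 0.94 to 0.96), which like *Clec4f* were highest in liver 8, and those nearest to *Adgre1* were *Setd7*, *Trak2*, *Il6st*, *Adar* and *Kdm2b* (r from 0.91 to 0.96). These correlations describe 8 livers that share libraries, scaling and, for *Trem2* and *Gpnmb*, the difference between genotypes, and they were picked as the highest of many.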

How the data were processed

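Liver poly(A) RNA of 4 FxrKO and 4 Bcl6LKOFxrKO males was sequenced as 100-base single-end reads. The authors aligned the reads to mm10 with STAR 2.5.2, retaining those that mapped to 1 place with no more than 4 mismatches, and deposited the unnormalized exon counts of HOMER 4.10 beside each gene's transcript length. Tools and versions are from the paper's methods and the submitters' processing notes.

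Groups came from the genotype labels and liver numbers 1 to 8 from the library names in the sample descriptions. The labels do not state how the mice were related. In R 4.3.3, edgeR 4.0.16 (filterByExpr, TMM, robust quasi-likelihood fit, Benjamini-Hochberg over 12340 genes) gave log2 fold changes, with standard errors from the F statistic and 95% intervals. Exact permutation tests ran over 70 orderings. With 7586241 to 11839503 counts per liver, genes under about 1 CPM are imprecise. The edgeR fit was tested on simulated data. No pair of livers of a genotype agreed within sampling noise (chi-square per degree of freedom 10 to 45.8).

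The members and lists were chosen with earlier results of these data known. Named were the 10 markers, the pathway and transcription factor lists, up to 3 called genes with the smallest adjusted p per list and direction, and the 5 genes most like *Adgre1*, *Clec4f*, *Trem2* and *Gpnmb*, without predicted genes. Some genes that this rule gives are not reported here. Other genes named in the lists were chosen after their values were seen. Alternatives were DESeq2 1.42.0, limma 3.58.1 voom with quality weights, RLE factors, total counts alone, leaving out the 50 most counted genes, no filter, a minimum of 10 counts per liver, other pseudocounts, a log2 fold change above 0.5, each liver left out and, chosen after seeing the data, leaving out livers 1 and 8. Promoters came from RefSeq (GRCm38.p6) for 8 markers.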

Additional observations from a re-analysis of the deposited data

Results flagged for a closer look

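Of 28 sets of 4 livers examined for a value far from the others, 1 was flagged, and chance flags about 1. In FxrKO liver 1, the mean log2(CPM + 1) of the lipid-associated markers minus that of the resident markers was -3.25, while the other FxrKO livers were at -4.43, -4.35 and -4.27. The gap to the nearest liver was 0.867 of the whole range, above Dixon's critical value for 4 values. Liver 1 was the FxrKO liver with the most *Trem2*, *Gpnmb* and *Itgax* (2.19, 2.29 and 3.33 CPM), and all 3 were still below every Bcl6LKOFxrKO liver.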

How the results depend on the processing

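The 4 called markers stayed called, and the other 6 uncalled, under each alternative in which they were tested, with log2 fold changes of 0.69 to 1.03 for *Cd68*, 2.69 to 3.22 for *Trem2*, 5.02 to 6.33 for *Gpnmb* and 1.42 to 1.99 for *Itgax* and a highest adjusted p of 0.0102. When every liver had to reach 10 counts, the number of called markers was 2, because *Trem2* and *Gpnmb* were then not tested. With each liver left out, 4 markers were called higher and 0 lower in all 8 fits. The sign turned for *Clec4f*, with -0.03 under limma voom, -0.09 as the lowest of -0.09 to 0.31 with single livers left out (without liver 8) and -0.11 without livers 1 and 8, and for *Vsig4*, with -0.03 under total counts alone. The cause was not tested.

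Other Kupffer cell markers called higher numbered 3 under limma voom, 2 under total counts alone, 2 without livers 1 and 8 and 1 to 5 with single livers left out, against 6, and those called lower numbered 2 under DESeq2, limma voom, total counts alone and without livers 1 and 8 and 1 to 2 with single livers left out, against 1. Other lipid-associated markers called lower numbered 0 to 1 with single livers left out and 0 without livers 1 and 8. General macrophage markers called higher ranged from 7 to 11 with single livers left out, where fewer livers are tested, against 12. The contrast of lipid-associated minus resident markers was 3.22 with a pseudocount of 0.1 CPM and 2.37 to 2.77 with single livers left out, against 2.49.

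No paired analysis was possible because neither the library names, numbered 1 to 8, nor the numbers in the sample titles give a number shared between genotypes. Some title numbers are consecutive across genotypes, which the labels do not call a pairing. Low counts limit *Gpnmb* and *Trem2* in FxrKO livers and left 5 of 12 monocyte markers untested.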
